A study of Mus musculus with 8 samples.

Results

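The 8 genes described here encode the receptors and their partners that switch fat breakdown on and off in the adipocyte, and were chosen by name. They are Adrb1, Adrb3, Adra2a, Adora1, Ptger3, Npr3, Gnas and Pde3b, 8 of the 18022 genes in the deposited count table, and each of them matched 1 gene. The series holds RNA-seq of subcutaneous fat from 8 mice, 1 library each, all of the C57BL/6J strain after 4 back-crosses. Of these, 4 libraries are labelled KO, with the genotype Pkd1adipo delta/delta, and 4 are labelled WT, with the genotype Pkd1(flox/flox), so that both groups come from mice with floxed alleles and differ by an adipocyte deletion of protein kinase D1. The promoter that drives the deletion, and the age, sex and diet of the mice, are not stated in the labels. Libraries are written as their label and replicate number, as in KO3.

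Catecholamines start lipolysis by binding beta-adrenergic receptors, which act through the stimulatory G protein to raise cyclic AMP and so activate protein kinase A. Receptors coupled to inhibitory G proteins, for catecholamines, adenosine or prostaglandin E2, lower cyclic AMP, and insulin lowers it through a phosphodiesterase. Natriuretic peptides act beside this route through cyclic GMP, and a clearance receptor removes them. Adipocytes of mice are known for a very high share of the beta3 receptor among their beta-adrenergic receptors.

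The targeted gene did not separate the labels. Prkd1, which encodes protein kinase D1, had 71, 108, 84 and 94 reads in KO1 to KO4 and 88, 72, 94 and 73 reads in WT1 to WT4, with a log2 fold change of 0.06 ± 0.15 (SE; adjusted p = 0.998, edgeR quasi-likelihood test). These counts cover the whole gene in the whole tissue and so do not check the labels; each direction given here is one between the labels. The libraries held 2617755 to 2873457 reads. Adipocyte markers summed to 21493 to 28744 CPM (counts-per-million reads) in the libraries labelled KO and 22399 to 25041 CPM in those labelled WT, with all 14 measured markers above 0 in every library. Skeletal muscle markers summed to 477 to 3995 CPM in the libraries labelled KO and 149.9 to 637 CPM in those labelled WT. Liver markers were high in WT1 (1748 CPM) and WT4 (1517 CPM) and lay between 140.3 and 615 CPM elsewhere, and the 2 measured small intestine markers reached 445 CPM in WT2 and at most 39.7 CPM elsewhere. Lymphocyte markers summed to 46.6 to 70.1 CPM in the libraries labelled KO and 70.3 to 137 CPM in those labelled WT. What these other cells contribute to the values below was not tested. In whole tissue, fewer cells of a type and less RNA per cell cannot be told apart.

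None of the 8 genes differed between the labels beyond the spread between mice. Among the 7 that could be tested, the largest fold changes were those of Adrb3, at 332 ± 74.6 CPM in libraries labelled KO and 246 ± 83.1 CPM in those labelled WT (SD, n = 4 each), and of Adrb1. Of the 7 genes that passed the count filter, the log2 fold change of KO over WT was positive for 3 and negative for 4, and their median was -0.03, beside a median of 0.00041 over all 14556 genes tested. With edgeR's quasi-likelihood test 0 of the 7 were called at an adjusted p under 0.05, where 0% of all tested genes were called as higher and 0% as lower. At an unadjusted p under 0.05 the count was also 0, where 4.49% of all tested genes passed. DESeq2 called 0 of the 7, beside 0.263% of all genes that it gave an adjusted p. The labels overlapped for all 8 genes, and 2.91% of all tested genes did not overlap. By the adjusted p of the authors' deposited table, none (0) of the 8 passed 0.05, where 2.42% of its genes did, and the smallest value there was that of Adrb3, 0.633. Before adjustment the authors' own comparison gave Adrb3 a p of 0.0349, beside 0.136 in edgeR's quasi-likelihood test here. With the skeletal muscle marker sum as a covariate, values moved by over 1.5 times, with 0 calls. On the log2 scale Adrb3 was at 0.78, Adrb1 at 1.77, Pde3b at 0.32, Gnas at -0.03, Adora1 at -0.30, Npr3 at -0.57 and Ptger3 at -0.96. Their SEs ran from 0.21 (Adora1) to 0.70 (Ptger3). That of Adrb1, which had 11 to 58 reads a library, was 0.41 (edgeR quasi-likelihood adjusted p = 0.998). The muscle sum largely follows the label (477 to 3995 CPM in KO, 149.9 to 637 CPM in WT), so the parts of muscle and label in these values cannot be told apart.

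**Figure D1:**
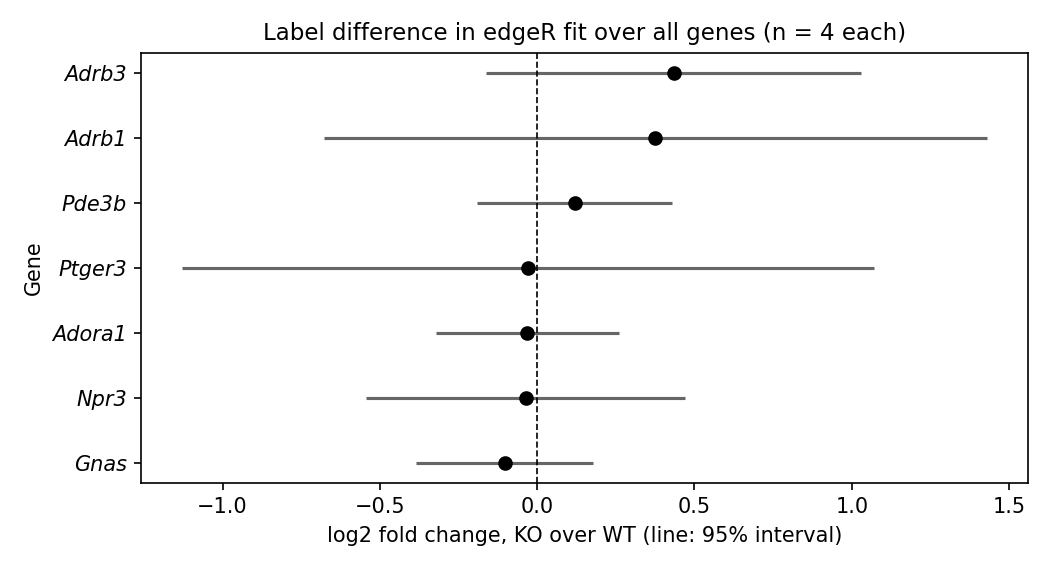
Log2 fold change of KO over WT for the 7 tested genes, from the edgeR fit over all genes, with 95% intervals as lines (4 libraries a label). Every interval includes 0; that of Ptger3 runs from -1.13 to 1.07 and that of Adora1 from -0.32 to 0.26.

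The stimulatory side begins with the beta-adrenergic receptors. Adrb3 (ENSMUSG00000031489) encodes the beta3 receptor, the main catecholamine receptor of mouse fat. It had 1063, 777, 1147 and 764 reads in KO1 to KO4 and 334, 751, 795 and 780 reads in WT1 to WT4. WT1 stood apart at 121.6 CPM, while WT2, WT3 and WT4 lay between 282 and 297 CPM, above KO2 and KO4 (265 and 271 CPM) and below KO1 and KO3 (387 and 405 CPM). The log2 fold change was 0.43 ± 0.27 (SE), a 1.35-fold difference with a 95% interval from -0.16 to 1.03 (edgeR quasi-likelihood adjusted p = 0.998; exact two-sided permutation p = 0.286, where 4 against 4 can reach 0.0286). Without WT1 the log2 fold change was 0.21. The adipocyte marker sum of WT1, 23878 CPM, lay between those of the other libraries labelled WT; its part in the low Adrb3 of WT1 was not tested. The highest level of Adrb3 was 3.33 times its lowest; of the 817 tested genes with a mean CPM within 2-fold of that of Adrb3, 96.8% had a smaller ratio.

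Adrb1 (ENSMUSG00000035283), the beta1 receptor, was far less abundant. It had 13, 34, 58 and 18 reads in KO1 to KO4 and 11, 29, 18 and 32 reads in WT1 to WT4. KO3 was highest and WT1 lowest, and the other 6 libraries of both labels mixed between them. The log2 fold change was 0.38 ± 0.47 (SE; 95% interval -0.68 to 1.43; edgeR adjusted p = 0.998), and it was -0.13 without KO3, so its sign rests on that library.

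Gnas (ENSMUSG00000027523) is the locus of the stimulatory G protein alpha subunit, which couples both beta receptors to adenylyl cyclase. It was the steadiest of the 8 genes, with 1728, 1843, 1749 and 1690 reads in KO1 to KO4 and 1659, 1990, 1739 and 1799 reads in WT1 to WT4. WT2, at 787 CPM, was above all other libraries, which lay between 598 and 652 CPM. The level was 619 ± 14.3 CPM in libraries labelled KO and 665 ± 83.8 CPM in those labelled WT (SD, n = 4 each), with a log2 fold change of -0.10 ± 0.13 (SE; edgeR adjusted p = 0.998). Without WT2 the log2 fold change was -0.01. Of the 226 tested genes of like mean level, 14.6% had a smaller ratio of highest to lowest CPM than Gnas, which had 1.32. A gene model on the opposite strand, ENSMUSG00000090625, had 96.5% to 98.6% as many reads as Gnas in each library, and the library kit does not mark strand, so reads of the locus cannot be divided between them. The counts also pool all transcripts of Gnas, an imprinted locus with several promoters.

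Pde3b (ENSMUSG00000030671) encodes the phosphodiesterase through which insulin lowers cyclic AMP. It had 1044, 914, 1167 and 755 reads in KO1 to KO4 and 886, 780, 912 and 850 reads in WT1 to WT4. The libraries labelled KO were spread on both sides of those labelled WT, with KO1 and KO3 above and KO4 below all 4 of them. The level was 343 ± 65.6 CPM in libraries labelled KO and 316 ± 8.71 CPM in those labelled WT (SD, n = 4 each; log2 fold change 0.12 ± 0.14, SE; edgeR adjusted p = 0.998). Without KO3 it was 0.02. Whether the spreads differ was not tested.

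**Figure D2:**
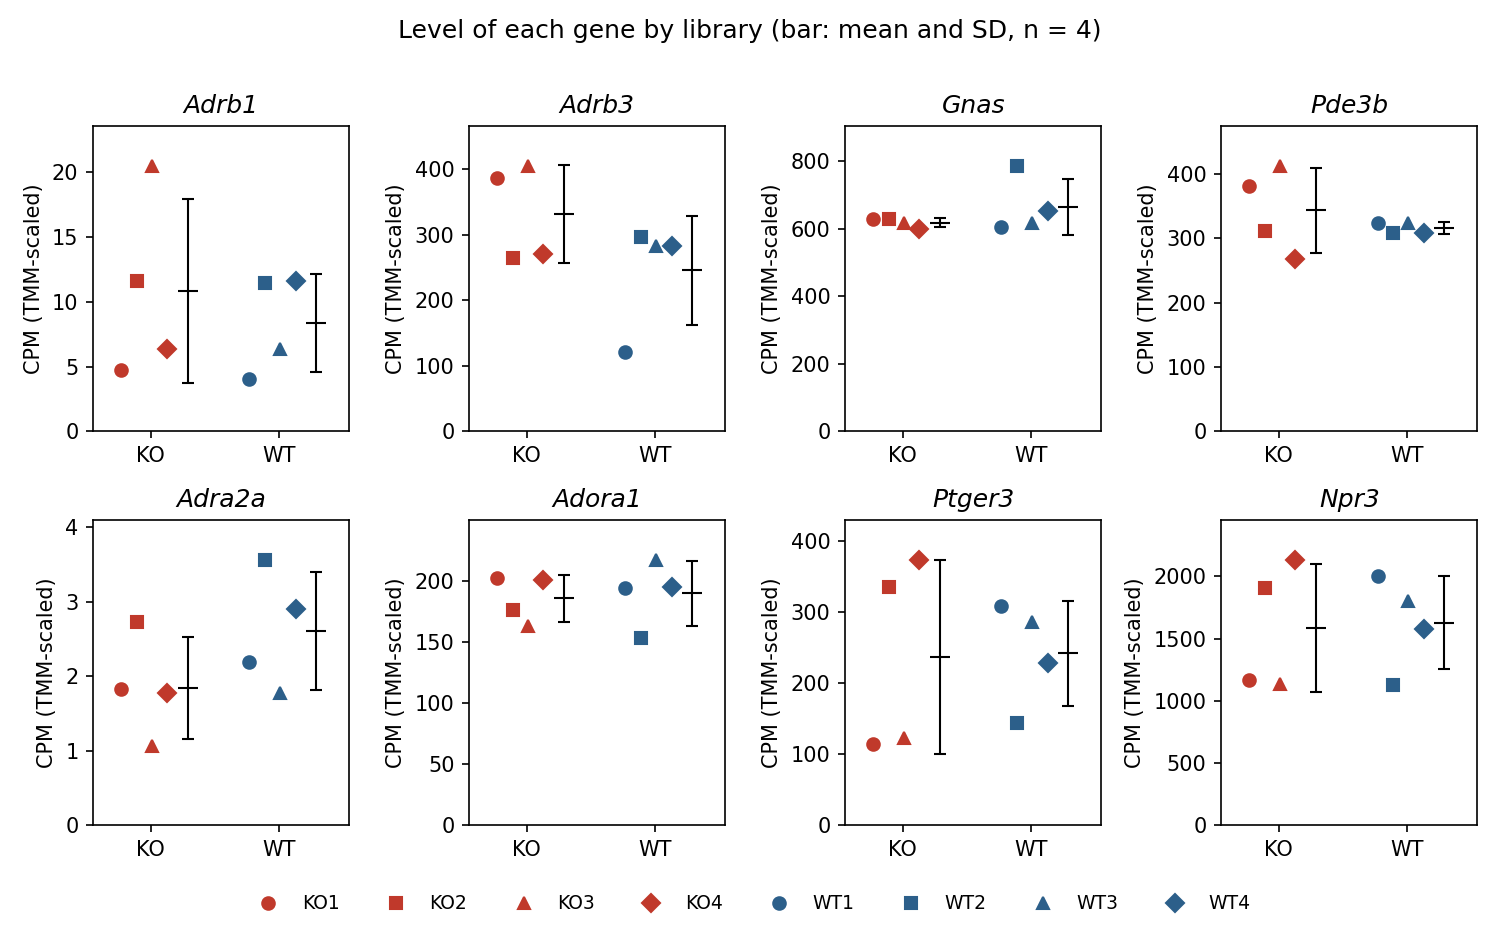
Level of each of the 8 genes in TMM-scaled CPM (vertical axes, from 0) in 4 libraries labelled KO (left) and 4 labelled WT (right); symbols mark the replicate number and bars the mean and SD. Adrb3 is low in WT1 only, and Ptger3 and Npr3 are low in KO1, KO3 and WT2.

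The inhibitory side holds receptors that lower cyclic AMP. Adra2a (ENSMUSG00000033717), the alpha2A-adrenergic receptor through which catecholamines brake lipolysis, was near the detection limit. It had 5, 8, 3 and 5 reads in KO1 to KO4 and 6, 9, 5 and 8 reads in WT1 to WT4, or 21 and 28 reads summed over each label. It did not pass the count filter; with no filter its log2 fold change was -0.48 ± 0.44 (SE; edgeR adjusted p = 0.987), and the exact two-sided permutation p on log2 CPM was 0.171. No difference in Adra2a was detected, with at most 9 reads in a library.

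Adora1 (ENSMUSG00000042429), the adenosine A1 receptor, had 555, 515, 461 and 567 reads in KO1 to KO4 and 532, 386, 611 and 537 reads in WT1 to WT4. The labels lay over each other, with WT2 lowest and WT3 highest. The level was 185 ± 19.4 CPM in libraries labelled KO and 189 ± 26.8 CPM in those labelled WT (SD, n = 4 each; log2 fold change -0.03 ± 0.14, SE; edgeR adjusted p = 0.998), and the sign turned without KO3 (0.03) or WT3 (0.04). Its exons share 1162 bases with Mybph on the opposite strand in GENCODE M21, and Mybph had 30.2% to 34.7% as many reads as Adora1 in each library. Part of the reads of Adora1 may therefore be those of Mybph, or the reverse. Exons of Adrb3 share 839 bases with Gm45470, and those of Npr3 share 321 bases with Gm5144, both on the opposite strand. Neither of these models was in the count table, so reads from them, if any, may have been counted to Adrb3 or Npr3.

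Ptger3 (ENSMUSG00000040016) encodes EP3, the prostaglandin E2 receptor that lowers cyclic AMP, and Npr3 (ENSMUSG00000022206) the clearance receptor of natriuretic peptides. Neither differed between the labels, but both varied widely within each label, and in the same libraries. Ptger3 had 316, 986, 349 and 1056 reads in KO1 to KO4 and 849, 364, 808 and 631 reads in WT1 to WT4. Npr3 had 3202, 5605, 3211 and 6023 reads in KO1 to KO4 and 5493, 2858, 5067 and 4363 reads in WT1 to WT4. For both genes the 3 lowest libraries were KO1, KO3 and WT2, and the highest was KO4. Between KO3 and KO4, libraries of the same label, Ptger3 stood at 123 and 374 CPM. Relative to its mean over the 8 libraries, Ptger3 ran from -0.92 in KO1 to 0.77 in KO4 on the log2 scale, and Npr3 from -0.46 in WT2 to 0.45 in KO4.

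The label differences were small beside this spread. Ptger3 was at 237 ± 137 CPM in libraries labelled KO and 242.1 ± 73.8 CPM in those labelled WT (SD, n = 4 each), with a log2 fold change of -0.03 ± 0.47 (SE) and a 95% interval from -1.13 to 1.07, wide enough to hold a 2-fold difference in either direction (edgeR adjusted p = 0.998). Npr3 was at 1586 ± 511 CPM in libraries labelled KO and 1627 ± 373 CPM in those labelled WT, with a log2 fold change of -0.04 ± 0.23 (SE; 95% interval -0.54 to 0.47; edgeR adjusted p = 0.998). The sign of both values turned without KO1, KO3, WT1 or WT3 and with scaling to adipocyte markers. The highest level of Ptger3 was 3.25 times its lowest, and 96.9% of the 1061 tested genes of like mean level had a smaller ratio. For Npr3 the ratio was 1.89, and 66% of 94 such genes had a smaller one. The adipocyte marker sum was 28744, 25700 and 25041 CPM in KO1, KO3 and WT2, the highest 3 of the 8, and 21493 CPM in KO4, the lowest; its part in the pattern of Ptger3 and Npr3 was not tested.

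**Figure D3:**
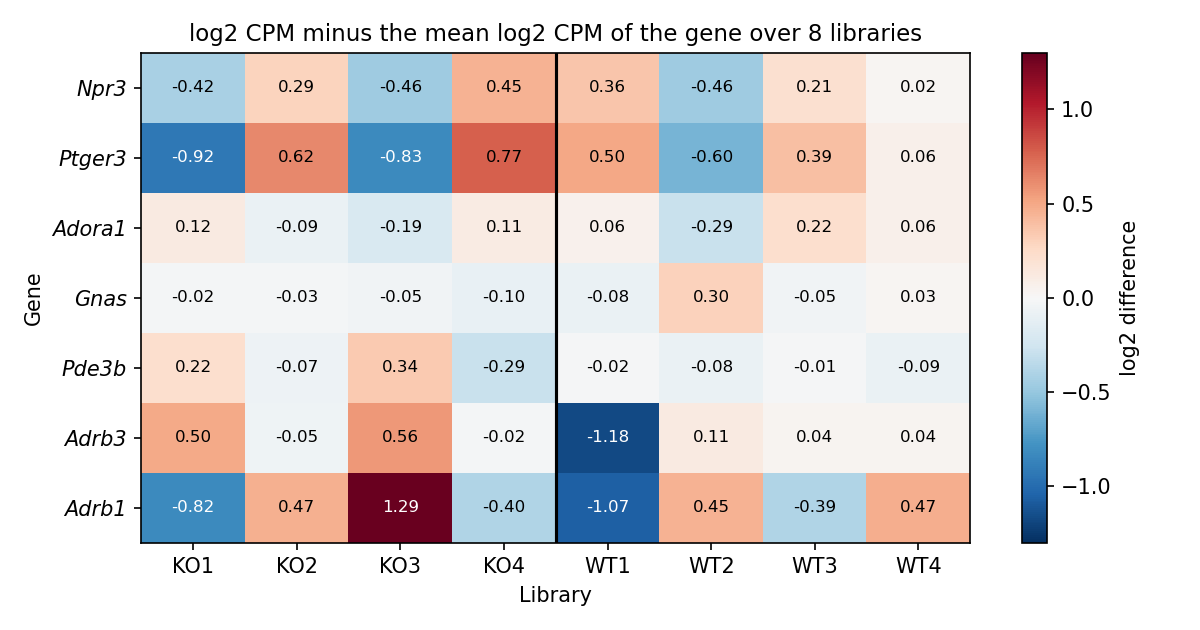
Log2 CPM of 7 genes minus the mean of each gene over the 8 libraries (colour and printed value), by library, with the libraries labelled KO left of the line. Npr3 and Ptger3 are below their means in KO1, KO3 and WT2 and above them in the other 5 libraries, while Adrb3 and Pde3b have their highest values in KO1 and KO3.

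The promoters of these 2 genes are shown because their levels varied together. The sequences are those of RefSeq on GRCm38.p6, from 250 bases before to 50 bases after the annotated start, 5′ to 3′ on the strand of the gene, at chr15:11907322-11907621 (minus strand) for Npr3 and chr3:157566626-157566925 (plus strand) for Ptger3. Capitals mark matches, on either strand, to any of 5 short motifs, whose letters are given after the sequences.
Npr3: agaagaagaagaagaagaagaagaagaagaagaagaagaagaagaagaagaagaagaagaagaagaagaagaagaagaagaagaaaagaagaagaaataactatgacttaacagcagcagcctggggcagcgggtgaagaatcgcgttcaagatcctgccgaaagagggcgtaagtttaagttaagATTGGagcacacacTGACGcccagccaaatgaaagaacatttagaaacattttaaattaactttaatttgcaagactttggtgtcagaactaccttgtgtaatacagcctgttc
Ptger3: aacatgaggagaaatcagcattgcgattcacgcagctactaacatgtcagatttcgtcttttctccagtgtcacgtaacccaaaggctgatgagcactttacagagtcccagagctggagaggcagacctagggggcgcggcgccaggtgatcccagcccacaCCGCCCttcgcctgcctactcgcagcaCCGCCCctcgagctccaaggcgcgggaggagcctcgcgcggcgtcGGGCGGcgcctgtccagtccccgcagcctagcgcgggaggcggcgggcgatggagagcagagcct

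The 2 windows had no motif of this set in common. Npr3 held 1 match to CCAAT, the CCAAT box, and 1 to TGACG, the core of the cyclic AMP response element, which 37.4% and 20.8% of the 32851 RefSeq promoter windows of this length hold. Ptger3 held 3 matches to GGGCGG, the GC box, which 35.7% hold. AGGTCA, the nuclear receptor half-site (16.3% of windows), and CACGTG, an E-box (7.15%), had 0 matches in both, and no matches overlapped. The Npr3 window opens with 28 GAA units in a row and has a GC content of 39%, against 64% for Ptger3. The matches describe these windows only.

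Of all 14555 other tested genes, Ptger3 ranked 3 in likeness to Npr3 over the 8 libraries (Pearson r = 0.98 on log2 CPM, 0.99 in the 6 libraries left without KO3 and WT2, those farthest from the median of Npr3). KO1, also low for both genes, stayed among these 6, so the second value does not show the likeness without the low libraries. The others in the first 4 places were Fmr1, an RNA-binding protein (r = 0.99), Srp54a, of the signal recognition particle (0.99), and Mosc1, a mitochondrial reductase (0.98). Fmr1 had 374, 1319, 442 and 1542 reads in KO1 to KO4 and 1617, 399, 1203 and 907 reads in WT1 to WT4, low in the same 3 libraries. For Adrb3 the genes most alike were Il16, a cytokine gene (r = 0.98), Mcrs1 (0.98), Phyhd1 (0.96) and Adhfe1, a mitochondrial dehydrogenase (0.95); in the 6 libraries left without KO3 and WT1, those farthest from the median of Adrb3, these were 0.95, 0.87, 0.77 and 0.75. KO1, high for Adrb3 as KO3 was, stayed among those 6. Adrb3 had r = -0.63 with Ptger3 and -0.66 with Npr3. These genes were picked as the highest of all, the libraries are few, and all values of a library share its depth and scaling, so the correlations describe these libraries and carry no p.

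Ratios of reads within a library do not depend on scaling. Npr3 had 14.6, 27.6, 13.8 and 32 times the reads of Npr1, the natriuretic peptide receptor that makes cyclic GMP, in KO1 to KO4 and 36.9, 16.1, 22.9 and 20.8 times in WT1 to WT4. Ptger3 had 0.297, 1.27, 0.304 and 1.38 times the reads of Adrb3 in KO1 to KO4 and 2.54, 0.485, 1.02 and 0.809 times in WT1 to WT4, an 8.55-fold range that is high in WT1 and low in KO1 and KO3. The difference between the label means was -0.67 on the log2 scale, below the pooled SD of 1.12. Adra2a over Adrb3 differed by -0.97 (pooled SD 0.70), with 3 to 9 reads of Adra2a behind each value. Adora1 over Adrb3 differed by -0.52 (0.56), Adrb1 over Adrb3 by -0.23 (0.70) and Pde3b over Gnas by 0.20 (0.24). With each library left out in turn, Adora1 over Adrb3 ran from -0.74 (without WT2) to -0.19 (without WT1), Adrb1 over Adrb3 from -0.50 (without KO3) to 0.17 (without KO1) and Pde3b over Gnas from 0.10 (without KO3 or WT2) to 0.29 (without KO4). Adra2a over Adrb3 ran from -1.27 (without KO2) to -0.65 (without KO3), Ptger3 over Adrb3 from -1.04 (without KO4) to -0.22 (without WT1), and Npr3 over Npr1, which differed by -0.16 (0.56), from -0.38 (without KO4) to 0.06 (without WT1). The labels overlapped for each of the 7 ratios, and none was tested. The ratio of Ptger3 to Npr3, chosen after both were seen, spanned 1.78-fold, from 0.0987 in KO1 to 0.176 in KO2. That is less than the 3.25-fold range of Ptger3 itself but close to the 1.89-fold range of Npr3.

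**Figure D4:**
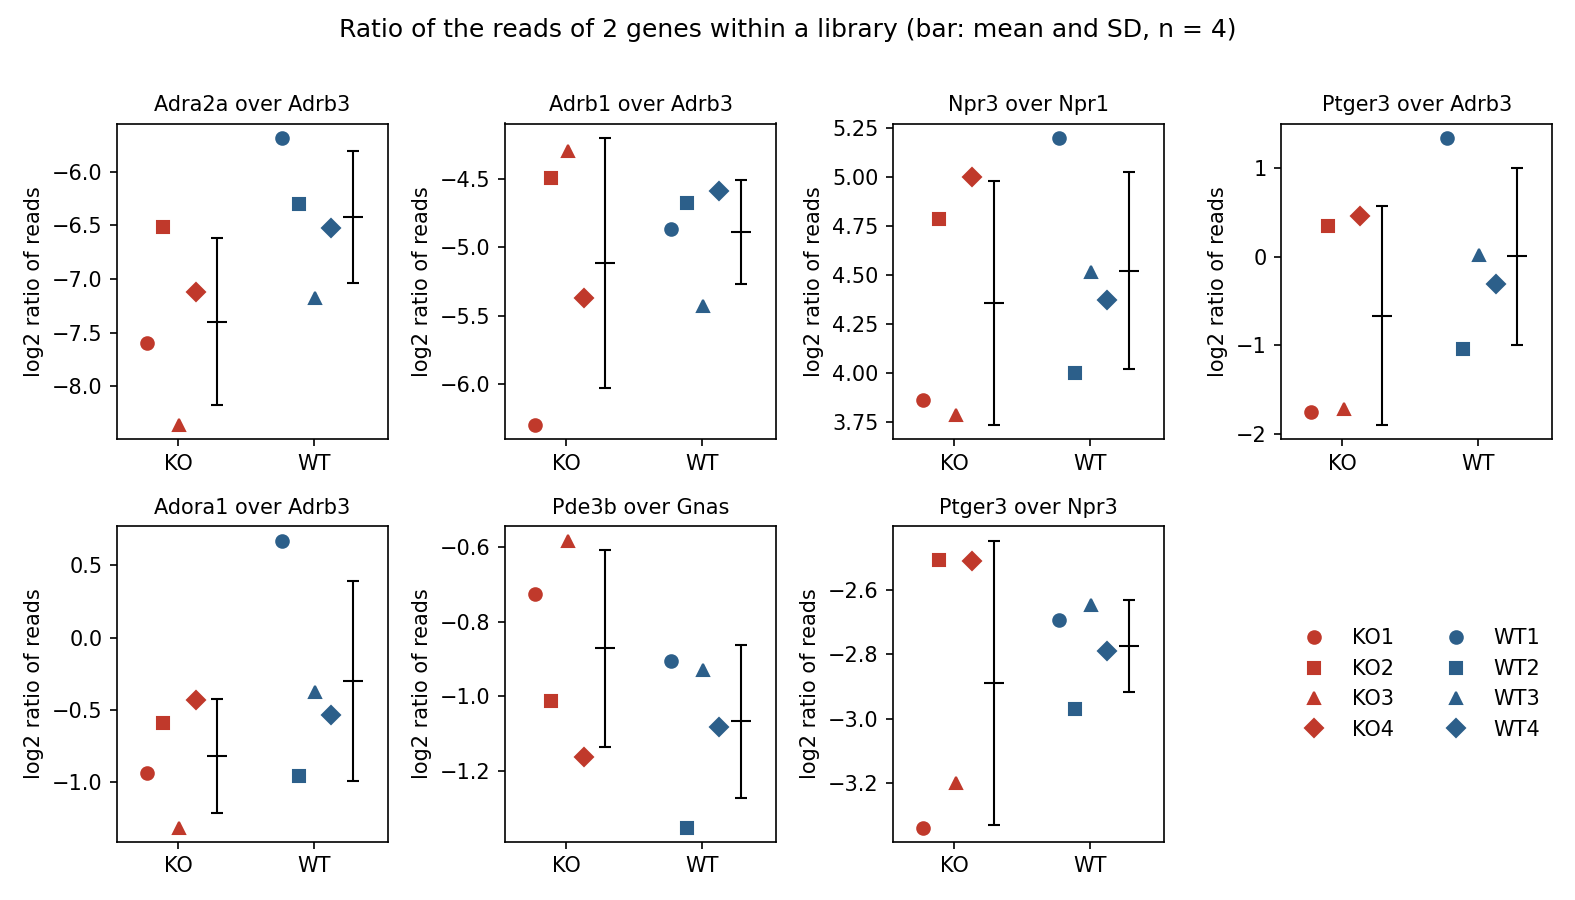
Log2 ratio of the reads of 2 genes within each library (vertical axes, which do not start at 0), in 4 libraries labelled KO (left) and 4 labelled WT (right), with bars for the mean and SD. The labels overlap in all 7 panels, and WT1 is the highest library where Adrb3 is the divisor of Ptger3, Adora1 or Adra2a.

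Per kilobase of merged exons, Npr3, the clearance receptor, had the highest level of the 8 genes and Adra2a, the alpha2A receptor, the lowest. The levels are TMM-scaled CPM per kilobase of merged GENCODE M21 exons, as medians over the 8 libraries with their range. Npr3 was at 179.9 (120.4 to 227), Adrb3 at 83.6 (36 to 120.04) and Gnas at 55.7 (53.5 to 70.4). Ptger3 was at 45.3 (20.2 to 65.7), Pde3b at 34.8 (29.3 to 45.2) and Adora1 at 33.6 (26.4 to 37.5). Adrb1, at 2.64 (1.18 to 6.06), and Adra2a, at 0.415 (0.219 to 0.737), were far lower. Npr3 ranked 203 among the 16983 genes with a length, inside the first 1.2%, and Adra2a ranked 16013.

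Within libraries, Npr3 was above Adrb3, Adora1 above Adrb1 and Adrb1 above Adra2a in 8 of 8 libraries (exact two-sided sign-flip permutation p = 0.00781 for each, the smallest that 8 pairs can give; Benjamini-Hochberg p = 0.0182 over 7 neighbouring pairs). The mean log2 differences were 1.03, 3.67 and 2.42, with SDs of 0.84, 0.91 and 0.95. The pairs and their direction were taken from the medians of these same libraries, so the p-values give no independent support for the order. They reflect the spread between libraries and not the choice of length. The other neighbours did not differ beyond their spread: Adrb3 was above Gnas in 7 of 8 libraries (adjusted exact p = 0.0684), Gnas above Ptger3 in 5 (0.131), Ptger3 above Pde3b in 5 (0.742) and Pde3b above Adora1 in 6 (0.173). With the longest transcript as the length, Gnas, whose merged exons span 11186 bases and whose longest transcript spans 3947, stood second at 157.9, above Adrb3 at 101.03, and the order of the others did not change. Lengths of shorter Gnas transcripts were not tried and would raise its value further. The place of Npr3 above Gnas therefore holds for these choices of length only.

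**Figure D5:**
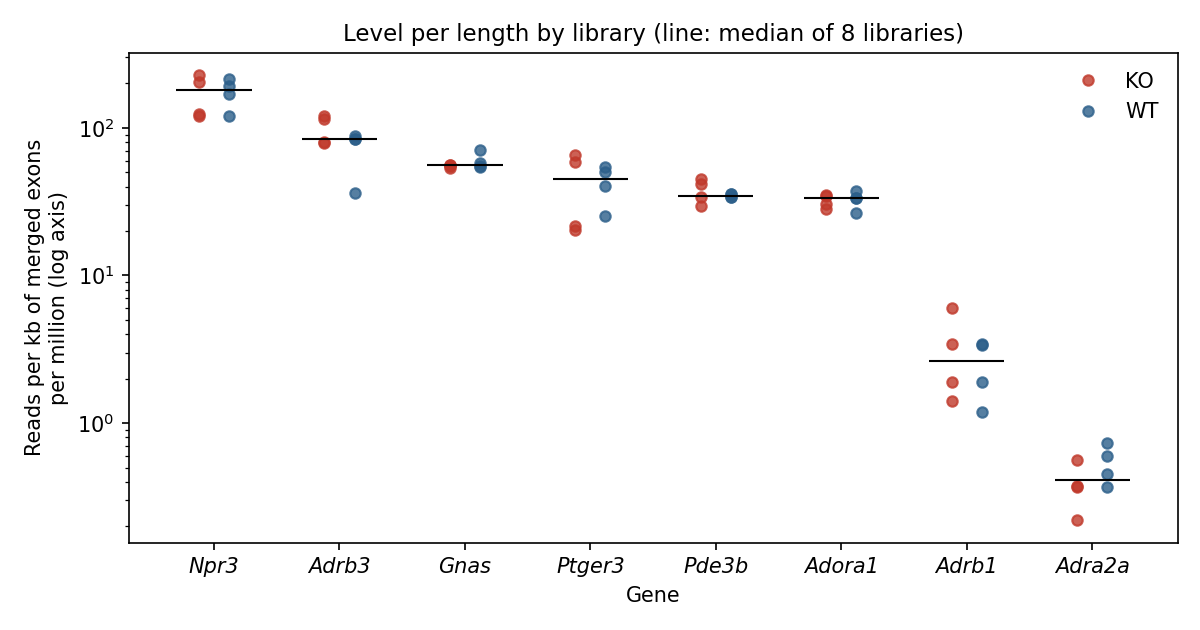
CPM per kilobase of merged exons (log axis) for the 8 genes in order of their median (line), one point per library, with KO left of WT for each gene. Npr3 is highest at a median of 179.9 and Adra2a lowest at 0.415.

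The genes around these receptors gave no call either. Of 144 tested genes in 12 signalling lists, the log2 fold change was positive for 81 and negative for 63 (median 0.02); 0 passed an adjusted p of 0.05, where 0% of all tested genes did, and 8 had an unadjusted p under 0.05, where 4.49% of all tested genes did. The labels did not overlap for 3 of the 144, Rgs4, Pde1a and Ptger4, where 2.91% of all tested genes did not.

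Of 14 tested genes of beta-adrenergic receptors, G proteins and adenylyl cyclases, 8 were positive and 6 negative (median 0.03). Gnb2, a G protein beta subunit, had a log2 fold change of -0.23 ± 0.12 (SE) and Adcy2, an adenylyl cyclase, 0.63 ± 0.36. The 16 genes of protein kinase A and its anchors had a median of 0.02, with Prkar1b at 1.01 ± 0.64, where KO1 had 89 reads and the other 7 libraries 12 to 23, beside 6 measured nerve and Schwann cell markers that summed to 177 CPM in KO1 and 28 to 96.6 CPM elsewhere (their part was not tested), and Prkar2b, the regulatory subunit abundant in fat, at 0.16 ± 0.13. Of 11 lipolysis and droplet genes 8 were positive and 3 negative (median 0.02). Pnpla2, the triglyceride lipase, had 5344, 2861, 5096 and 2646 reads in KO1 to KO4 and 2680, 3933, 3336 and 3282 reads in WT1 to WT4, highest in KO1 and KO3 as Adrb3 was (0.21 ± 0.25), and Cidec, a droplet protein, had 0.15 ± 0.18.

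Among 8 other Gi-coupled and alpha receptors (6 positive, 2 negative, median 0.03), Adra1a, an alpha1 receptor, had -0.40 ± 0.23 and Lpar1, a lysophosphatidic acid receptor, 0.29 ± 0.19. The median of these receptors was 0.14 without WT2 and -0.05 without WT3. The 13 inhibitory G proteins and RGS genes, whose products shorten G protein signals, had 4 positive and 9 negative members and a median of -0.08. With the muscle covariate that median was 0.07. Rgs4 was 1 of the 3 genes without overlap, with 28 to 37 reads in libraries labelled KO and 18 to 25 in those labelled WT (0.54 ± 0.21; edgeR adjusted p = 0.998). The 8 genes of receptor desensitisation had a median of 0.06, with Arrb1, a beta-arrestin, at -0.10 ± 0.14.

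The 15 genes of adenosine and prostaglandin E2 supply, removal and other receptors had 8 positive and 7 negative members (median 0.03). Nt5e, which makes adenosine outside the cell, had 0.92 ± 0.34 on 10 to 56 reads, Ptger1, the EP1 receptor, -0.29 ± 0.12 and Ptgs1, a cyclooxygenase, 0.44 ± 0.21. Ptger4, the EP4 receptor, which raises cyclic AMP, had -0.23 ± 0.13 and averaged 38.6 CPM in libraries labelled KO and 45.5 CPM in those labelled WT, without overlap. Of 9 natriuretic peptide and cyclic GMP genes 7 were positive and 2 negative (median 0.17, but 0.02 without KO2, 0.06 without WT4, 0.29 without WT1 and 0.04 with the muscle covariate): Prkg2 and Prkg1, cyclic GMP-dependent kinases, had 0.53 ± 0.22 and 0.30 ± 0.14, Mme, a protease that cleaves natriuretic peptides, -0.40 ± 0.17, and Npr1 0.09 ± 0.14. Of 15 other phosphodiesterases 11 were positive and 4 negative (median 0.08), with Pde1a at 0.36 ± 0.14, where the labels did not overlap, and Pde11a at 0.36 ± 0.18. The median of the phosphodiesterases was -0.03 without WT2, 0.20 without WT4 and -0.02 with the muscle covariate.

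The 17 genes of the insulin limb above Pde3b had 7 positive and 10 negative members (median -0.05), with Insr, the insulin receptor, at 0.14 ± 0.12. Of 13 genes induced by cyclic AMP or acting in transcription below it, 7 were positive and 6 negative (median 0.05). The list mixes induced genes with transcription factors and coactivators, such as Creb1 and Crtc2, so its median does not read out induction alone. Irf4, a transcription factor, had 0.79 ± 0.25, the smallest p of all these lists (unadjusted 0.00749, adjusted 0.998 in edgeR's quasi-likelihood test). It had 34 to 83 reads in libraries labelled KO and 24 to 35 in those labelled WT. Irf4 is also expressed in lymphocytes, whose summed markers were lower in the libraries labelled KO. The part of lymphocytes in the value of Irf4 was not tested. The 5 genes of catecholamine removal and synthesis had 1 positive and 4 negative members (median -0.03), with Maoa, a monoamine oxidase, at -0.32 ± 0.22.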

How the data were processed

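Per the labels' protocols, poly(A) RNA of subcutaneous fat was sequenced with a library kit that keeps no strand. Build mm9 and the tools Bowtie2, FastQC and edgeR are listed, with no role, per the submitters' processing notes; which counter and annotation were used is not stated there. Per the file headers, the authors deposited a table of raw counts, by Ensembl gene, and a table of their own comparison of the labels, with log2 fold changes, log2 mean CPM, p-values and adjusted p-values, positive where KO is higher.

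Groups and replicate numbers come from the sample titles, and columns were matched by mouse label. Counts were fitted with edgeR 4.0.16 (R 4.3.3): TMM scaling, filterByExpr (14556 of 18022 genes), a robust quasi-likelihood F test with the label as the only term, and Benjamini-Hochberg adjustment at 0.05. The fit was also run on simulated counts, drawn with the spread that it had itself estimated and without differences in cell types. That run does not show how the test behaves on these libraries. Each SE is the fitted log2 value divided by the square root of its F statistic. Permutation tests used log2 CPM with 0.5 reads added. Lengths and overlaps come from GENCODE M21 (GRCm38), another build than the authors', so only promoter coordinates are printed. Of the 8 genes, 6 had a RefSeq promoter.

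The genes and lists were chosen with earlier results of these data known. Named are the 8 genes, Prkd1, the 3 members of each list with the smallest p, of which some are not reported here, and the 4 genes most like Adrb3 and Npr3; likeness to Adra2a was not taken, since it lies under the filter. Gene models that overlap these, Npr1, Ptger4 and the ratio of Ptger3 to Npr3 were named after their values were seen. The alternatives were other scalings, filters and tools (DESeq2 1.42.0, limma 3.58.1), the replicate number as a block, a muscle covariate and each library left out.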

Additional observations from a re-analysis of the deposited data

Results flagged for a closer look

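Adrb3 in the libraries labelled WT had 1 library far from the others: WT1 stood at 121.6 CPM and the next at 282 CPM, a gap of 0.916 of the range of the group, above Dixon's 95% critical value for 4 libraries. In the 16 groups looked at for the 8 genes, chance gives about 0.8 such cases (1 in 20). The same rule was also applied to the log2 ratios of reads in each label and flagged none of them. Those further groups are not part of the 16. Liver markers were highest in WT1 (1748 CPM), and WT4, with 1517 CPM, had 282 CPM of Adrb3; the part of the liver markers was not tested.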

How the results depend on the processing

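Over 20 alternatives, none of the 7 tested genes and 0 genes of the signalling lists passed an adjusted p of 0.05 (lowest 0.915, for Adrb3). The counts over all genes depended on the tool: DESeq2 called 32 higher and 4 lower, the likelihood ratio test 30 and 4, and the fit without KO3 50 higher and 0 lower; in the other fits that leave out a library both counts were 0. The cause was not tested.

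Adrb3, Gnas and Pde3b kept their signs. With libraries left out, Adrb3 ran from 0.21 to 0.54, Adrb1 from -0.13 to 0.62, Adora1 from -0.12 to 0.0409, Ptger3 from -0.34 to 0.20, Npr3 from -0.21 to 0.0948, Gnas from -0.15 to -0.01 and Pde3b from 0.02 to 0.22. With scaling to adipocyte markers Ptger3 and Npr3 turned to 0.0324 and 0.0017. With the muscle covariate the values moved by over 1.5 times for all 7: Adrb3 0.78, Adrb1 1.77, Pde3b 0.32, Adora1 -0.30, Ptger3 -0.96, Npr3 -0.57 and Gnas -0.03. That covariate largely follows the label, so the parts of muscle and label cannot be told apart.

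The labels do not say whether the replicate numbers pair the mice. Deviations of same-numbered libraries correlated at -0.28 to -0.13. This cannot decide the question, since differences such as those in the marker sums also enter these values. With the replicate number as a block Adrb3 was 0.48 and Ptger3 -0.17, with 0 genes called in either direction.

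With the longest transcript as the length, medians per kilobase moved to 245 for Npr3, 157.9 for Gnas, 72 for Ptger3, 48.2 for Pde3b and 39.1 for Adora1, since shorter lengths divide the same reads. Values of Adra2a rest on 3 to 9 reads a library. With libraries left out, the medians of the signalling lists ran between -0.21 (catecholamine removal) and 0.29 (natriuretic peptides and cyclic GMP).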
